A study of Mus musculus with 9 samples.

Results

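RNA of Krt20-traced kidney nuclei was compared between day 28 and day 7 after ischemia-reperfusion injury (IRI), over every nucleus that the sort had delivered. The members are the 14622 nuclei of the 5 injured mice, of 27738 nuclei in the series, chosen by their library alone: 7188 nuclei from 3 mice at day 28 and 7434 from 2 mice at day 7. Raw counts of unique molecular identifiers (UMIs, 1 per captured transcript molecule) were summed over all nuclei of a library, so the mouse is the replicate. All 5 were male Krt20T2A-CE; INTACTnuGFP/+ mice, 11 to 19 weeks old at surgery, given tamoxifen at 0.05 mg/g and an 18 min clamp of both renal pedicles. In this line tamoxifen switches on a recombinase expressed from the Krt20 locus, which leaves a nuclear GFP in cells that expressed Krt20 and in their descendants; the sort then kept GFP-positive nuclei. The remaining 4 mice of the series were controls of another reporter line, Six2TGC; Rosa26rtTA; pTRE-H2BeGFP on doxycycline food at 625 mg/kg, 3 after sham surgery and 1 without surgery. Their levels are quoted only as a background range, without a test, because reporter line and injury differ together there. Library chemistry differs there as well for all traced libraries but 1.

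The proximal tubule is the kidney segment most open to ischemic injury. Its surviving cells lose transport functions, switch on injury genes such as Havcr1, enter the cell cycle and rebuild the epithelium, and some of them do not recover and keep a pro-inflammatory state marked by Vcam1 and chemokines. Krt20 is a keratin gene that such injured cells express, so the same traced population can be asked what it transcribes in the repair phase and some weeks later. Reporter, tamoxifen and sort were the same on both sides of the comparison, which leaves time, mouse and library chemistry as the known differences.

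Library totals were 2409411, 11668625 and 6091046 UMIs for day 28 mice 1 to 3 and 14641038 and 8718254 for day 7 mice 1 and 2, with median depths of 1185, 2824, 4174, 3172 and 1963 UMIs per nucleus. The library of day 28 mouse 1 stood apart. Its cell barcodes began like the v2 barcode set, those of the other 4 traced libraries like the v3 set. Of its nuclei 34.5% held under 1000 UMIs, against 2.15% to 17.0% in those 4. Its Spearman correlation across genes with the other libraries was 0.872 to 0.921, against 0.920 to 0.986 among the other 4, and its mitochondrially encoded genes took 0.0715% of UMIs against 0.00855% to 0.0118%. Any 2 traced libraries shared 0 to 4 cell barcodes, and day 28 mouse 1 shared none. The barcodes of all 4 control libraries began like the v2 set, so control ranges differ in chemistry from the v3 libraries too. The shallowest control, sham mouse 2, held 1833617 UMIs, with a median of 668 per nucleus and 83.5% of nuclei under 1000 UMIs. Results below are for all 5 libraries unless a sentence says within v3 barcodes, which is the comparison of the other 4 libraries, without day 28 mouse 1. A gene given only within v3 barcodes did not pass with 5 libraries. In the 5 libraries genes with the shortest genomic spans had a median log2 change of 0.50 and those with the longest -0.14, against 0.20 and -0.05 within v3 barcodes.

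With all 5 libraries, 276 of 15464 genes tested were higher at day 28 (1.78% of genes) and 79 were lower (0.511%), 355 in all (2.3%), at a Benjamini-Hochberg adjusted p under 0.05 in edgeR's quasi-likelihood test. Within v3 barcodes 1431 of 15280 genes were higher (9.37%) and 803 lower (5.26%), 2234 in all (14.6%). Of the 355 genes called with 5 libraries, 354 were called in the same direction within v3 barcodes and none in the opposite direction. Both fits hold the same v3 libraries, so values within v3 barcodes are no independent check. Levels are given as CPM (UMIs of a gene per 1000000 UMIs) scaled by the TMM factor of each library, a correction for differing RNA makeup, in the order of mice 1, 2 and 3 for day 28 and mice 1 and 2 for day 7; log2 changes are day 28 minus day 7 with their standard error (SE). In all 355 called genes the libraries of day 28 and day 7 did not overlap, which was true of 45.4% of all genes tested, 22.3% higher and 23.1% lower at day 28. These calls rest on few mice. With day 28 mouse 2 or day 7 mouse 2 left out no gene passed in edgeR, while 2934 and 1281 genes had an unadjusted p under 0.05; without day 28 mouse 3 only 3 passed, and without day 7 mouse 1 only 49.

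The best-known marker of tubular injury was lower at day 28 in every mouse. Havcr1 (chromosome 11, 46735080 to 46779578, GRCm38, plus strand) encodes KIM-1, a surface receptor that injured proximal tubule cells use to take up dead cells. It stood at 276, 318 and 185 CPM at day 28 and at 1059 and 846 CPM at day 7, while the controls held 1.66 to 7.26 CPM. The groups did not overlap, and even the lowest traced library was far above the highest control. The log2 change was -1.88 (SE 0.26, adjusted p = 0.027), and -1.89 (SE 0.26, adjusted p = 0.0058) within v3 barcodes. Cd44, which encodes a receptor for hyaluronan and osteopontin, was lower too, at 177, 208 and 283 CPM against 588 and 561, a log2 change of -1.36 (SE 0.23, adjusted p = 0.039), and -1.204 (SE 0.17) within v3 barcodes. In sums over a whole library, fewer nuclei of a kind and less RNA per nucleus cannot be told apart, here and in the results that follow. These were the only members of the 23 acute injury markers tested that passed with 5 libraries; the median of the list was -0.28, against 0.01 over all genes. Within v3 barcodes 5 of 23 fell and none rose, in a fit where 5.26% of all genes fell and 9.37% rose. The additional genes were Lgals3 at -1.02 (SE 0.18), S100a6 at -0.96 (SE 0.25) and S100a11 at -0.91 (SE 0.21). Lgals3 encodes galectin-3, and the other pair encode calcium-binding proteins of the S100 family.

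Other genes of the injured tubule did not pass the test. Krt20, the gene whose locus drives the trace, had 18.7, 22.6 and 13.0 CPM at day 28 and 24.0 and 16.6 at day 7, with overlapping groups and a log2 change of -0.17 (SE 0.32, adjusted p = 0.79). Spp1, which encodes osteopontin, lay at 808, 620.0 and 424 CPM against 682 and 814, a log2 change of -0.28 (SE 0.28, adjusted p = 0.59). Il34, a growth factor gene for macrophages, had 1173, 1129 and 1087 CPM against 1007 and 1597 (-0.20, SE 0.23, adjusted p = 0.63), and the controls 82.3 to 108. The transcription factor gene Sox9 had 65.3, 55.3 and 57.9 CPM against 45.9 and 46.6 (0.36, SE 0.18, adjusted p = 0.31), and the controls 0 to 0.427. The groups overlapped in Krt20, Spp1 and Il34 but not in Sox9, and in all 4 genes the lowest traced library lay above the highest control. None of the 4 passed within v3 barcodes either, with log2 changes of -0.50 for Spp1 to 0.31 for Sox9. Lcn2, the NGAL gene, was near the limit of detection at 1.60 to 4.97 CPM in the 5 libraries and did not pass (adjusted p = 0.24).

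**Figure D1:**
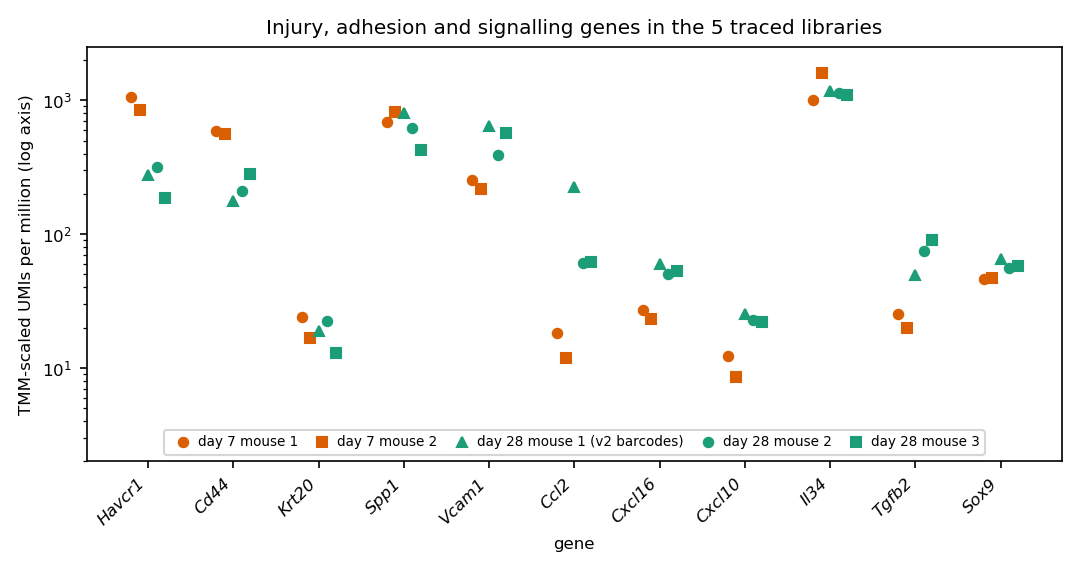
Levels of 11 injury, adhesion and signalling genes in each traced library, in TMM-scaled CPM on a log axis; each point is 1 mouse, orange for day 7, green for day 28, the triangle for the day 28 library with v2 barcodes. Havcr1 and Cd44 sit lower at day 28, Tgfb2 and Cxcl16 higher, and the points of Krt20, Spp1 and Il34 overlap between the times.

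Vcam1, an adhesion gene of tubule cells that fail to repair, leaned the other way from Havcr1. Its levels were 638, 391 and 571 CPM at day 28 and 254 and 219 CPM at day 7, with no overlap and with controls at 2.29 to 9.82 CPM. With 5 libraries the log2 change of 1.17 (SE 0.25) missed the threshold at an adjusted p of 0.064, and within v3 barcodes Vcam1 rose by 1.05 (SE 0.19, adjusted p = 0.011). Of 20 failed-repair tubule markers none passed with 5 libraries. Within v3 barcodes Vcam1 and Ccl2 rose and Nrg1, a ligand gene of ERBB receptors, fell by 0.99 (SE 0.21), from 1646 and 1382 CPM to 915 and 579.8 in day 28 mice 2 and 3. In that fit 9.37% of all genes rose and 5.26% fell. The counts of 2 rises and 1 fall of 20 are near these shares and say nothing about the list. The list median was -0.11 with 5 libraries and -0.05 within v3 barcodes, with 7 of 20 members positive in the former. A predicted gene on the other strand, Gm43109, overlaps Vcam1 and was far less abundant, at 0.446 to 29.5 CPM.

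Genes of mitosis were the function list with the most falls. Of 28 cell cycle genes tested, 5 were lower and none higher with 5 libraries, with a median of -1.52 against 0.01 over all genes. Within v3 barcodes 14 of 29 were lower and none higher, with a median of -1.48. Over all genes 0.511% were lower with 5 libraries and 5.26% within v3 barcodes. Cenpf, a kinetochore gene (chromosome 1, 189640606 to 189688086, minus strand), fell furthest, from 29.5 and 31.0 CPM at day 7 to 2.39, 0.994 and 2.89 CPM at day 28, a log2 change of -3.94 (SE 0.44, adjusted p = 0.023). Diaph3, which encodes an actin-nucleating formin, had 12.7, 11.4 and 12.3 CPM against 73.4 and 71.1 (-2.58, SE 0.19, adjusted p = 0.014). Anln, which encodes the contractile ring protein anillin, had 3.58, 4.25 and 6.57 CPM against 27.2 and 36.6 (-2.70, SE 0.33, adjusted p = 0.025). The kinetochore motor gene Cenpe fell by 2.45 (SE 0.35) and the central spindle gene Prc1 by 1.96 (SE 0.32). Within v3 barcodes the changes were -4.07 (SE 0.40) for Cenpf, -2.59 (SE 0.17) for Diaph3 and -2.57 (SE 0.30) for Anln. At day 28 no library was above the control range in Cenpf (1.87 to 5.02 CPM), Diaph3 (4.68 to 13.6) or Cenpe (1.56 to 5.12), and every library was above it in Anln (0.935 to 2.73) and Prc1 (0 to 3.13). Among all genes Ect2, a cytokinesis regulator outside the list, was also lower (-1.79, SE 0.28, adjusted p = 0.036).

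Every one of the 14 falls within v3 barcodes was in a gene of mitosis, cytokinesis or proliferating cells in general, and none in a replication gene. Top2a, the mitotic topoisomerase gene, had 4.78, 2.53 and 7.69 CPM against 22.2 and 26.9 and missed the threshold with 5 libraries (-2.32, SE 0.46, adjusted p = 0.055), but passed within v3 barcodes (-2.33, SE 0.46, adjusted p = 0.019). Within v3 barcodes the log2 change was -2.94 (SE 0.49) for Kif11, a spindle motor gene, -2.08 (SE 0.51) for Cdk1, the kinase gene of mitotic entry, -1.73 (SE 0.32) for the spindle assembly gene Tpx2 and -1.22 (SE 0.23) for the kinesin gene Kif20b. Kif11 and Cdk1 had no UMI in day 28 mouse 1. Bub1, Cenpa and Cdca8, genes of the checkpoint and the centromere, were the remaining falls. Of the replication genes, Mcm2, Mcm3, Mcm5, Mcm6, Pcna, Rrm2, Tyms and Pole did not pass in either fit, with log2 changes of -0.87 to 0.07 with 5 libraries. Whether the replication and mitosis genes differ in their change was not tested.

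Mki67, the gene of the Ki-67 antigen, split the day 28 mice. It had 32.7 CPM in day 28 mouse 1, 3.16 and 6.41 in mice 2 and 3, and 33.5 and 35.2 at day 7. With 5 libraries it did not pass (-1.43, SE 0.84, adjusted p = 0.36), and within v3 barcodes it fell by 2.88 (SE 0.32, adjusted p = 0.0015). The 82 Mki67 UMIs of day 28 mouse 1 lay in 81 nuclei, with at most 2 in any nucleus. In the other libraries more of them shared a nucleus: 35 UMIs in 28 nuclei and 40 in 32 at day 28, with up to 8 in 1 nucleus, and 472 in 203 and 315 in 182 at day 7, with up to 10. Cenpf and Top2a did not share the high value of that library, with 6 UMIs in 4 nuclei and 12 UMIs in 8 nuclei.

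Mitosis genes are known to share promoter elements: CCAAT boxes, bound by NF-Y, and cell cycle homology regions, read here as TTTGAA or TTCGAA. Promoter windows from RefSeq (GRCm38.p6, 250 bases before to 50 after a start site) were found for 26 of the 30 list members. Both motifs were searched on both strands, and matches can overlap. CCAAT was in 84.6% of the list's genes, against 41.1% of all 27025 genes with a window and 42.5% of the 11350 of them that were tested. TTTGAA or TTCGAA was in 61.5%, against 21.7% and 17.3%, and both motifs in 53.8%, against 8.61% and 7.13%. Among the 13 matched genes that fell within v3 barcodes, 84.6% held CCAAT, 84.6% held TTTGAA or TTCGAA and 69.2% held both. Windows are shown for the 3 genes with the largest falls among the list's calls with 5 libraries and for Mki67, because they show the range of arrangements: Cenpf and Mki67 hold both motifs, Diaph3 only the former and Anln only the latter. Capitals mark the motifs on either strand, so that a motif on the other strand is printed as its reverse complement, and each line reads 5′ to 3′ on the gene's strand.
Cenpf, chr1:189688037-189688336, minus strand: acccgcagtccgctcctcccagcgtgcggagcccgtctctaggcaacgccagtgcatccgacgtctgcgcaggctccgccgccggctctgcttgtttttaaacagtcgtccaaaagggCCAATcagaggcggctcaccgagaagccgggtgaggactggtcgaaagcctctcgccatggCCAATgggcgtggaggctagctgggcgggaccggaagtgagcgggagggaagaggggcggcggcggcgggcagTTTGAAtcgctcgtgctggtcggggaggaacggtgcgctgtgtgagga
Mki67, chr7:135716330-135716629, minus strand: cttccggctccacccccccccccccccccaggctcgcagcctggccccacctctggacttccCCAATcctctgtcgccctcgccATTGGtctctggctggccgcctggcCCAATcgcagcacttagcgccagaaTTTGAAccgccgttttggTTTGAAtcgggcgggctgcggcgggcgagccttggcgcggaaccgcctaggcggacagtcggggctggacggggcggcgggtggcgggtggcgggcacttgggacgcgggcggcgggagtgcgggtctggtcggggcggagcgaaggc
Diaph3, chr14:87141175-87141474, minus strand: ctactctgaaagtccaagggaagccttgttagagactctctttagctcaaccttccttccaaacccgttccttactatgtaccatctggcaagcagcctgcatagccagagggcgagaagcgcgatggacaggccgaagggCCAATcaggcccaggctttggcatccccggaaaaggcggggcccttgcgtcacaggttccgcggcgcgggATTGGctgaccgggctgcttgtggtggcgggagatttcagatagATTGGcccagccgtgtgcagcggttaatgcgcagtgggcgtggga
Anln, chr9:22389157-22389456, minus strand: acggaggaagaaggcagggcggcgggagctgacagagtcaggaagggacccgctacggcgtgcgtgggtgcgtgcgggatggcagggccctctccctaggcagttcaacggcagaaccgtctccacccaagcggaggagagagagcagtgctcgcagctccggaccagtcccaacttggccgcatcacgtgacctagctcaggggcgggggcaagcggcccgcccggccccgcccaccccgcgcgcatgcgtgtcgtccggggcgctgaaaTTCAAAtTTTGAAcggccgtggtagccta
A match of letters is a description and not a binding site. All 4 genes were picked from those lower within v3 barcodes, so their windows cannot show whether arrangement and change go together.

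**Figure D2:**
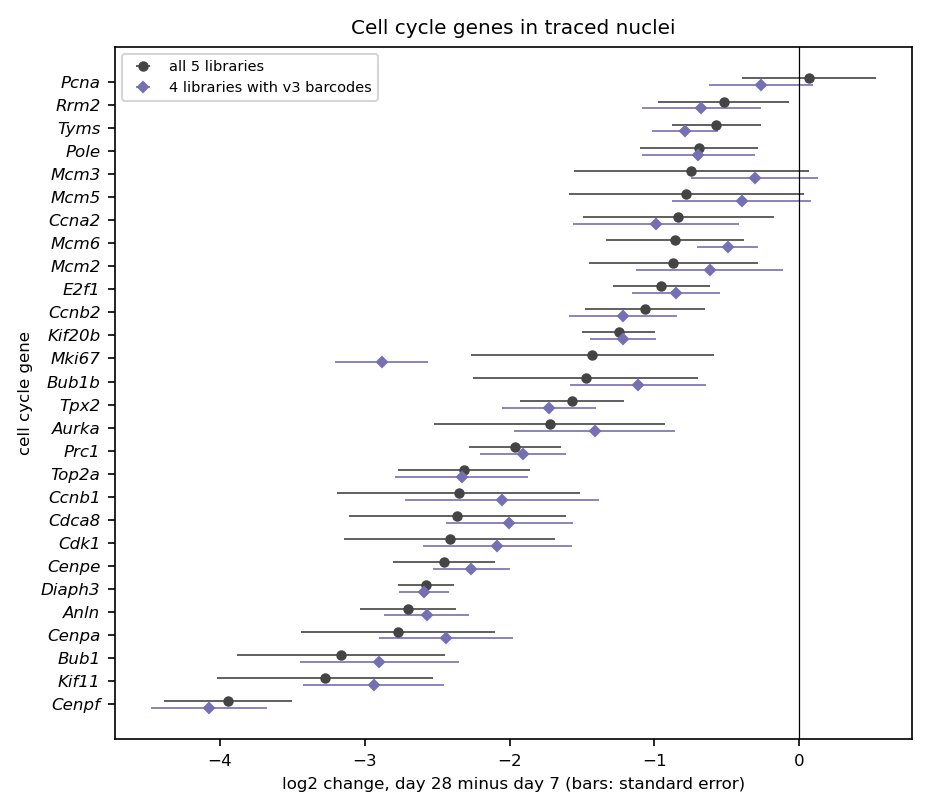
Log2 change (day 28 minus day 7) of the 28 cell cycle genes tested with 5 libraries; circles are all 5 libraries, diamonds the 4 libraries with v3 barcodes, bars 1 standard error. Cenpf has the lowest change with 5 libraries at -3.94, Pcna is the highest at 0.07, and Mki67 is the gene whose 2 values differ most (-1.43 and -2.88).

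Outside the cell cycle the largest falls included genes of adhesion, signalling and the cell surface. Cdh13, which encodes the membrane-anchored T-cadherin, had 34.2, 59.6 and 75.3 CPM at day 28 against 469 and 319 at day 7 (-2.79, SE 0.34, adjusted p = 0.025), with controls at 6.03 to 22.9. Hs3st5, a heparan sulfate sulfotransferase gene, had 17.9, 30.5 and 11.2 CPM against 177 and 100.2 (-2.78, SE 0.43, adjusted p = 0.035). Peak1, a cytoskeletal pseudokinase gene, was the most abundant of the falls, at 255, 362 and 365 CPM against 898 and 1717 (-1.995, SE 0.31, adjusted p = 0.033). In each of these genes both day 7 mice were above every day 28 mouse. In each the day 7 mice also differed from each other by more CPM than the day 28 mice did. Within v3 barcodes the changes were -2.52 (SE 0.21) for Cdh13, -2.66 (SE 0.52) for Hs3st5 and -1.83 (SE 0.32) for Peak1. Kcnq5, a potassium channel gene, fell by 1.99 (SE 0.35), the receptor-like kinase gene Styk1 by 2.06 (SE 0.25), and Efemp1, which encodes a fibulin of the extracellular matrix, by 1.91 (SE 0.26). In these 6 genes every day 28 library was still above the control range. Il31ra, a cytokine receptor gene, had 2.79, 4.25 and 3.37 CPM against 14.8 and 26.0, and its control range of 1.35 to 3.27 held 1 of the day 28 values, with the other two just above. The anoctamin gene Ano3 (-2.25, SE 0.37) and the long noncoding RNA Lockd (-3.18, SE 0.44), whose gene lies next to Cdkn1b, were also lower, and no day 28 library was above their control ranges of 3.27 to 13.1 and 3.01 to 7.64 CPM. Pth1r, the parathyroid hormone receptor gene of the proximal tubule, had 99.6, 96.7 and 80.2 CPM against 249 and 475 (-1.98, SE 0.28, adjusted p = 0.030), which put day 28 below the control range of 129.7 to 257 CPM. Pth1r shares part of its span with the less abundant Myl3 on the other strand.

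Among rises, the protein-coding genes with no tested gene on the other strand were singled out after the values had been seen, because most rises lay opposite another gene. Of these genes 33 were higher and 63 lower, and the 15 described here had the largest rises among those with at least 20 CPM in the higher group. Wdr17, a WD-repeat gene (chromosome 8, 54629055 to 54887184, minus strand), led them, at 205, 211 and 288 CPM at day 28 and 24.1 and 18.4 at day 7, a log2 change of 3.46 (SE 0.26, adjusted p = 0.014) and 3.57 (SE 0.21) within v3 barcodes. The controls held 175 to 397 CPM, so day 28 was inside and day 7 below the control range. Fyb2, an adaptor gene, had 431, 278 and 233 CPM against 95.1 and 90.5 (1.76, SE 0.29, adjusted p = 0.039), with controls at 195 to 397. Ctsh, the cathepsin H gene, had 50.6, 54.1 and 68.9 CPM against 23.4 and 23.3 (1.31, SE 0.22, adjusted p = 0.040), with controls at 46.4 to 66.6. In both, day 7 was below the controls and day 28 within their range or, in 1 mouse each, just above it. Rdh5, a retinol dehydrogenase gene, rose by 1.65 (SE 0.30) to 17.3 to 23.1 CPM, within its control range of 15.2 to 26.7. Dmac2, an assembly factor gene of mitochondrial complexes, rose by 1.55 (SE 0.27) to 31.1, 29.0 and 39.1 CPM, of which only mouse 3 was inside its control range of 32.5 to 80.7.

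Other rises were higher at day 28 than in the controls as well. Rtn1, a reticulon gene of neurons and of injured kidney, had 76.9, 118 and 120.2 CPM at day 28, 23.0 and 15.2 at day 7 and 0.935 to 8.25 in the controls (2.46, SE 0.31, adjusted p = 0.025). Fgf12, which encodes an intracellular partner of sodium channels, had 24.7, 64.0 and 51.9 CPM against 9.02 and 6.81 (2.58, SE 0.43, adjusted p = 0.041), with controls at 5.72 to 12.0. The complement gene C7 had 20.7, 19.0 and 23.9 CPM against 4.97 and 5.80, and the controls 0 to 1.56. In each of the 3 genes the lowest day 28 mouse was above the highest day 7 mouse and the highest control, and within v3 barcodes the changes were 2.66 (SE 0.20), 2.89 (SE 0.21) and 2.01 (SE 0.26). Stac, an adaptor gene of muscle and neurons, rose by 1.87 (SE 0.25), the kinase gene Camk2b by 1.92 (SE 0.27), Plppr1, a lipid phosphatase-related gene, by 2.01 (SE 0.33) and the protease gene Fam111a by 2.21 (SE 0.27), and in these 4 too every day 28 library exceeded every control. At day 7 Plppr1 (17.4 and 12.6 CPM) and Fam111a (10.5 and 11.2) were below their control ranges of 23.3 to 36.5 and 17.5 to 33.1. Camk2b was inside its range at day 7 and Stac above it. Cntn4, a neural adhesion gene (2.88, SE 0.41), and Unc5d, a netrin receptor gene (3.09, SE 0.53), rose to levels that overlapped the controls, at 17.1 to 33.5 CPM with controls at 8.52 to 30.0, and at 14.9 to 47.0 CPM with controls at 4.99 to 24.0. Both were below their control ranges at day 7, Cntn4 at 4.12 and 2.68 CPM and Unc5d at 3.62 and 3.12 CPM. The last of the 15, Tgfb2, follows with its pathway.

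Genes of cytokine signalling had few calls with 5 libraries. Tgfb2, a ligand gene of the TGF-beta family (chromosome 1, 186622792 to 186705989, minus strand), had 49.8, 74.5 and 90.1 CPM at day 28, 25.4 and 19.98 at day 7 and 0 to 1.85 in the controls, a log2 change of 1.66 (SE 0.30, adjusted p = 0.045) and of 1.88 (SE 0.18, adjusted p = 0.00081) within v3 barcodes. It was the only member of 26 TGF-beta, matrix and integrin genes to pass with 5 libraries; the list median was -0.13. Within v3 barcodes 3 of 26 rose, Tgfb2 among them, in a fit where 9.37% of all genes rose and 5.26% fell, so the number of rises is near the share over all genes. In the same fit 4 fell: the ligand gene Tgfb1 (-0.87, SE 0.24), the receptor gene Tgfbr2 (-0.62, SE 0.13), Lamb3 (-1.14, SE 0.21) and Pdgfa (-0.92, SE 0.16). Ligand genes of the same family therefore moved in opposite directions within v3 barcodes: Tgfb1 had 13.6 and 20.7 CPM in day 28 mice 2 and 3 against 29.9 and 32.9 at day 7.

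Few NF-kB and chemokine genes were called, and all of the calls were rises. Cxcl16, which encodes a membrane-bound chemokine, was the only one of 25 NF-kB and chemokine genes called with 5 libraries, at 59.7, 50.3 and 52.7 CPM against 26.9 and 23.3 (1.10, SE 0.20, adjusted p = 0.046), with controls at 17.3 to 28.7. It shares 552 bases of its span with Zmynd15 on the other strand, which had 23.5, 23.0 and 19.9 CPM against 15.2 and 14.7 and did not pass. Within v3 barcodes 5 of 25 rose and none fell: Cxcl16, Cxcl10 at 1.13 (SE 0.24), Ccl2 at 2.04 (SE 0.21), Ccl7 at 2.01 (SE 0.45) and Nfkbiz, a regulator of NF-kB target genes, at 0.59 (SE 0.13). In that fit 9.37% of all genes rose and 5.26% fell. The list median was 0.14 with 5 libraries, where 15 of 25 members were positive, and 0.22 within v3 barcodes, against 0.01 over all genes in both fits. Ccl2, the monocyte chemokine gene, had 226, 60.7 and 61.9 CPM at day 28 and 18.1 and 11.9 at day 7, against 0 to 1.56 in the controls. All 3 day 28 mice were above both day 7 mice, with mouse 1 far above mice 2 and 3, and with 5 libraries the change of 2.92 (SE 0.67) did not pass (adjusted p = 0.077). The Ccl2 gene lies wholly inside Gm17268 on the other strand, with no shared exon bases. Gm17268 had 2199, 343 and 457 CPM at day 28 and 32.1 and 9.37 at day 7 and rose within v3 barcodes (4.27, SE 0.61), and its part in the Ccl2 counts was not tested.

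Most of the rises lay opposite another gene. The classes that follow were formed after the largest rises had been seen, so they describe the calls and do not test them. Of the 276 genes that rose, 267 had a single span in GENCODE M21 (GRCm38), and 209 of these (78.3%) overlapped, on the opposite strand, a tested gene that was more abundant than themselves. That class held 2397 genes, of which 8.72% rose and 0.125% fell, with a median log2 change of 0.74; within v3 barcodes 30.9% rose and 1.84% fell, with a median of 0.56. The 10821 genes with no tested gene on the other strand had 44 rises (0.407%) and 68 falls (0.628%) and a median of -0.04. The 2051 genes opposite a less abundant gene had 14 rises and 8 falls. Biotype marked the rises too. The 1773 genes with a noncoding biotype, counted over all of these classes, held 182 of the 267 rises (68.2%). Of them 10.3% rose and 0.338% fell, with a median of 1.16, and within v3 barcodes 35.0% rose and 2.14% fell, with a median of 0.90. Strand position and biotype were not separated, and which of them goes with the rises was not tested. Of 105 noncoding genes whose symbol ends in os, for opposite strand, 14 rose and none fell with 5 libraries, 47 rose and none fell within v3 barcodes, and 86 had a positive change. Without the genes that lie opposite a tested gene, falls therefore outnumbered rises.

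**Figure D3:**
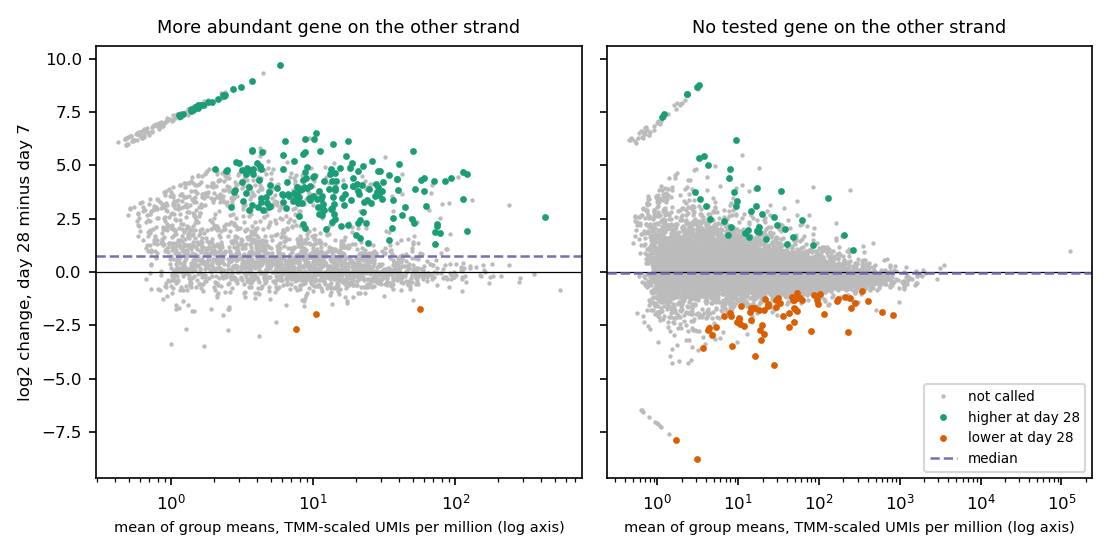
Log2 change (day 28 minus day 7, 5 libraries) against mean level on a log axis for genes opposite a more abundant tested gene (left, 2397 genes) and genes with no tested gene on the other strand (right, 10821 genes); each point is 1 gene, and the dashed line is the median of the class. The left median lies at 0.74 and the right at -0.04; the thin diagonal arms are genes with no UMI in 1 of the groups, whose fitted change depends on the model's prior count and is no measure of size.

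Together the 2397 genes took 4.86%, 3.79% and 3.93% of all UMIs at day 28 and 2.75% and 2.78% at day 7, and 3.45% to 4.46% in the controls. Day 28 was above day 7 in every mouse, and the controls lay above day 7 and across the day 28 values. The 105 noncoding genes whose symbol ends in os differed in this. They took 0.202%, 0.167% and 0.198% at day 28, 0.119% and 0.147% at day 7, and 0.117% to 0.141% in the controls. For them every control lay below every day 28 library and the controls overlapped day 7. Whether the authors' counting kept the strand of a read is not given in the sources used here. Where it did not, reads of a gene and of its partner cannot be told apart, and the part of this in the rises was not tested. Il34, Hnf4a, Umod and Slc12a1 also share part of their spans with a less abundant gene on the other strand.

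By the rule for named genes, 11 of the 15 largest rises lie opposite a more abundant tested gene. Sorbs2os, an antisense transcript inside Sorbs2 (chromosome 8, 45723325 to 45819297, minus strand), had 17.1, 47.5 and 39.8 CPM at day 28 and 0.853 and 0 at day 7 (6.13, SE 0.89, adjusted p = 0.031). Its partner Sorbs2, an actin-linked adaptor gene, had 184, 244 and 209 CPM against 175 and 181 and did not pass (adjusted p = 0.45). So the antisense gene went from near 0 to a fraction of its partner's level, while every library of the partner lay between 175 and 244 CPM, with day 28 above day 7. Within v3 barcodes Sorbs2os rose by 6.43 (SE 0.57). Lrrc4, a synaptic adhesion gene (chromosome 6, 28661831 to 28831747, minus strand), lies wholly inside Snd1 with no shared exon bases. It had 114, 113 and 101.2 CPM against 8.10 and 2.46 (4.33, SE 0.49, adjusted p = 0.023), and Snd1, a gene of RNA processing, 154, 271 and 242 CPM against 303 and 239 (adjusted p = 0.56). The control range of Lrrc4 was 18.0 to 28.2 CPM, between the day 7 and the day 28 values, and within v3 barcodes the change was 4.30 (SE 0.45).

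The other 9 genes were likewise at low levels at day 7. B3galt2, a galactosyltransferase gene inside Cdc73, rose by 5.68 (SE 0.78), Slc24a5 opposite Myef2 by 5.42 (SE 0.81), Far1os inside Far1 by 4.53 (SE 0.69) and Adap2os inside Adap2 by 4.11 (SE 0.75). Gcnt7 inside Rtf2 rose by 3.94 (SE 0.73), Bcas3os1 inside Bcas3 by 3.65 (SE 0.67), Ccdc73 opposite Eif3m by 3.45 (SE 0.37) and Dtnbos inside Dtnb by 3.36 (SE 0.62). Mettl23, a methyltransferase gene, had the partner with the largest change of the 11: it rose by 3.90 (SE 0.70), and Srsf2, a splicing factor gene, had 399, 149 and 132 CPM against 65.4 and 39.95 (2.09, adjusted p = 0.098) and rose by 1.44 (SE 0.22) within v3 barcodes. None of the 11 partners passed with 5 libraries, and the other 10 had log2 changes between -0.61 and 0.26. The remaining 4 of the 15 were Wdr17 and Unc5d, described above, Cfap157, a cilium gene (3.27, SE 0.41), and Atp5o, an ATP synthase subunit gene without a single span in the annotation (3.20, SE 0.43).

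**Figure D4:**
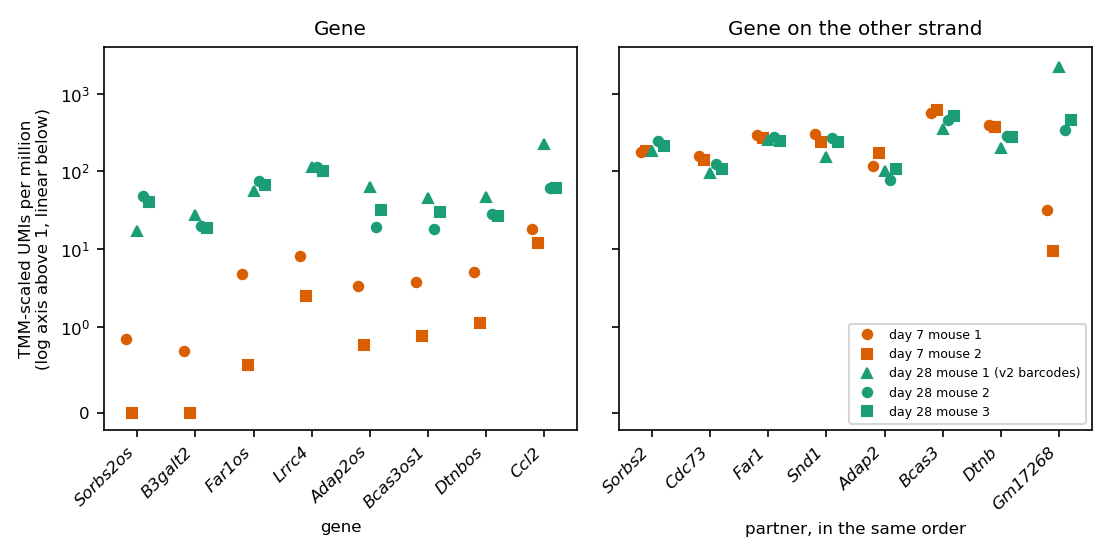
Levels of 8 genes (left) and of the gene on the other strand of each (right, same order), in TMM-scaled CPM on an axis that is logarithmic above 1 and linear below; each point is 1 mouse. The genes on the left sit higher at day 28 (green) than at day 7 (orange). The partners from Sorbs2 to Dtnb differ less between the times. Every day 28 point is below both day 7 points in Cdc73, Adap2, Bcas3 and Dtnb and above them in Sorbs2, and the times overlap in Far1 and Snd1. Those of Gm17268, opposite Ccl2, are far apart, at most 32.1 at day 7 and at least 343 at day 28.

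Genes of proximal tubule identity had no call with 5 libraries. Slc34a1, the main phosphate cotransporter gene, had 957, 429 and 899 CPM at day 28 and 518 and 512 at day 7, with overlapping groups (0.56, SE 0.34, adjusted p = 0.38). Lrp2, the megalin gene, had 697, 652 and 451 CPM against 726 and 606 (-0.15, SE 0.23, adjusted p = 0.73), and the transcription factor gene Hnf4a 104, 139 and 170 CPM against 158 and 167 (-0.24, SE 0.23, adjusted p = 0.58). In every traced library Slc34a1 and Lrp2 were below the control ranges of 3621 to 4639 CPM and 1247 to 1642 CPM. Of 32 proximal tubule transport genes none passed with 5 libraries (median 0.15), and within v3 barcodes 2 rose and 3 fell (median -0.14), near the shares over all genes in that fit (9.37% and 5.26%). The counts therefore say nothing about the list, and the members are given as single genes. The risers were Slc5a12, a lactate carrier gene, at 1.01 (SE 0.15), and the sodium-proton exchanger gene Slc9a3 at 1.11 (SE 0.17). The fallers were Slc6a18, an amino acid carrier gene, at -0.72 (SE 0.19), the sulfate carrier gene Slc13a1 at -0.62 (SE 0.15) and Slc17a1 at -0.83 (SE 0.16). None of the 15 proximal tubule transcription factors tested passed in either fit.

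Metabolic lists had no call with 5 libraries. Within v3 barcodes, where 9.37% of all genes rose and 5.26% fell, each had at most 3 calls in a direction, which is too few to set a list apart from other genes, and the members are named as single genes. There, 2 of 11 gluconeogenesis and fructose genes rose: Pck1, the gene of the committed enzyme of glucose synthesis (0.95, SE 0.15), and the glucose-6-phosphate transporter gene Slc37a4 (1.15, SE 0.26). Pck1 had 205, 85.4 and 78.4 CPM at day 28 and 45.3 and 40.8 at day 7, and all 5 libraries were below the controls at 268 to 645. Fatty acid oxidation genes had 2 rises and 3 falls of 27, amino acid and creatine metabolism genes 1 and 1 of 21, glycolysis and hypoxia genes 2 and 3 of 20, and nuclear genes of the respiratory chain 3 and 2 of 27. In the glycolysis and hypoxia list Vegfa rose by 0.96 (SE 0.17), from 43.4 and 35.2 CPM to 68.2 and 82.4 in day 28 mice 2 and 3, and Pkm, the pyruvate kinase gene, fell by 1.51 (SE 0.20). Androgen-responsive genes had 2 rises of 11, among them Cyp4b1 at 1.00 (SE 0.22), and 1 fall, Kap at -0.44 (SE 0.13).

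Lists of stress and growth control had no call with 5 libraries. Within v3 barcodes, where 5.26% of all genes fell, 6 of 17 p53 targets and senescence genes fell, with Phlda3, an inhibitor gene of AKT signalling, at -2.60 (SE 0.56), Eda2r, a death receptor gene, at -1.69 (SE 0.24), Zmat3 at -0.97 (SE 0.18) and Mdm2, the gene of the p53 inhibitor, at -0.84 (SE 0.17), and 1 rose. In the same fit 6 of 22 NRF2, glutathione and iron genes fell, among them Gpx3, the secreted glutathione peroxidase gene (-2.54, SE 0.41), and the glutathione synthesis genes Gclc (-0.75, SE 0.19) and Gclm (-0.71, SE 0.16), while the ferritin chain gene Fth1 rose by 0.63 (SE 0.16). Nephron developmental genes split, with 4 rises and 4 falls of 21: Wt1 (1.197, SE 0.22), Hes1 (1.59, SE 0.27), Lef1 (1.99, SE 0.45) and Osr2 (1.66, SE 0.43) were higher, and Sox11 (-1.06, SE 0.20), Pax8 (-0.75, SE 0.17), Jag1 (-0.82, SE 0.15) and Cd24a (-1.15, SE 0.30) lower. Hes1 is a target gene of Notch signalling and Jag1 encodes a Notch ligand. The remaining lists had counts near the 9.37% of all genes that rose and the 5.26% that fell within v3 barcodes, so only the genes are named. Interferon and MHC genes had 2 rises, H2-D1 (0.99, SE 0.23) and Irf9 (1.29, SE 0.22), and 1 fall, Ifit3 (-2.06, SE 0.40), of 23. Immediate early genes had 1 rise of 15, the AP-1 subunit gene Junb (1.63, SE 0.38). Heat shock and protein folding genes had 1 rise, the unfolded protein response gene Xbp1 (1.59, SE 0.23), and 2 falls, Hsph1 and Calr, of 18, and YAP and TEAD targets no call of 13.

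**Figure D5:**
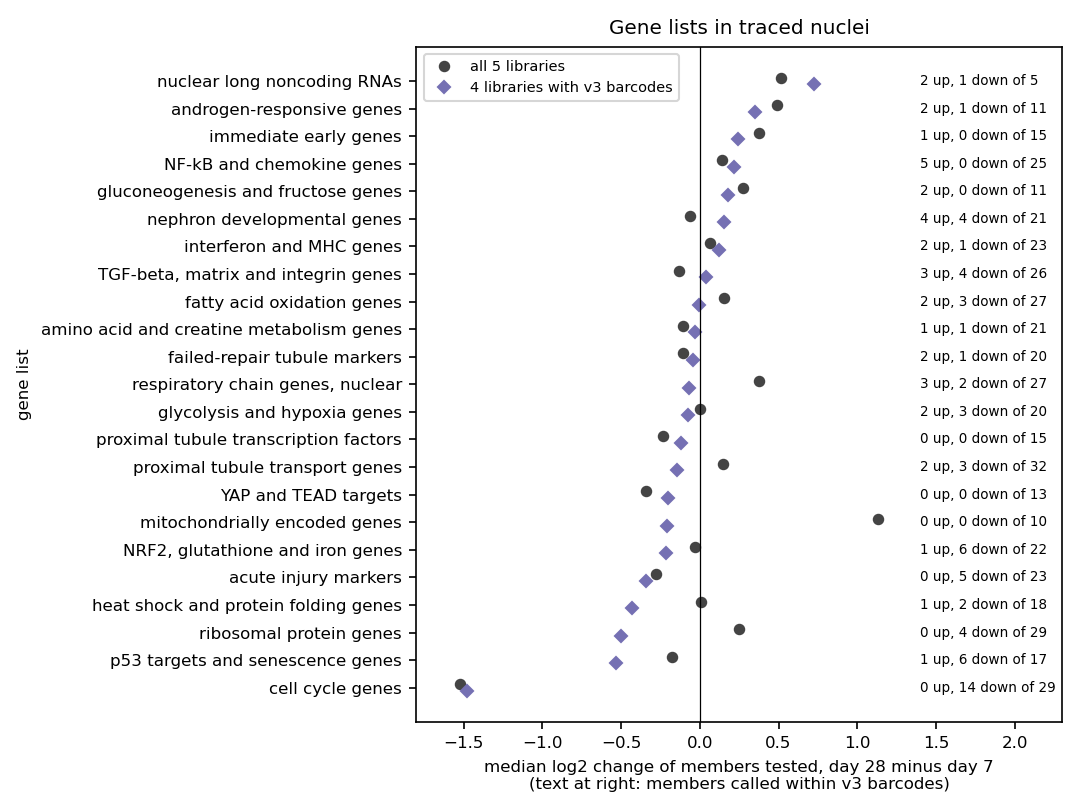
Median log2 change (day 28 minus day 7) of the members tested of 23 gene lists; circles are all 5 libraries, diamonds the 4 libraries with v3 barcodes, and the text at the right counts members called within v3 barcodes. Cell cycle genes lie lowest in both, at -1.52 and -1.48, while mitochondrially encoded genes move from 1.13 with 5 libraries to -0.21 without the day 28 library with v2 barcodes.

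Ribosomal protein genes and mitochondrially encoded genes depended on day 28 mouse 1. The ribosomal protein genes took 0.153% of its UMIs against 0.0479% to 0.0891% in the other 4 libraries. Their median change was 0.25 with 5 libraries and -0.50 within v3 barcodes. In the latter fit 4 of 29 fell and none rose, while 5.26% of all genes fell and 9.37% rose. Rpsa, which encodes a protein of the small ribosomal subunit, was lower in both fits, at 19.5, 17.6 and 12.2 CPM against 54.4 and 109 (-2.33, SE 0.35, adjusted p = 0.032). Ribosomal protein genes have near-identical pseudogene copies, which makes their counts uncertain. No mitochondrially encoded gene of 10 passed in either fit. Malat1, a nuclear noncoding RNA, took 17.2%, 17.6% and 16.0% of UMIs at day 28, 10.3% and 6.74% at day 7 and 19.8% to 24.0% in the controls. Day 28 was 8.44 percentage points higher, with no overlap. A two-sided exact permutation test over the 10 possible splits gave p = 0.1, its lower limit, and an adjusted p of 0.467 over 14 classes. In the gene fit Malat1 did not pass with 5 libraries (0.97, SE 0.30, adjusted p = 0.14) and rose by 1.02 within v3 barcodes (SE 0.25, adjusted p = 0.029).

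Markers of other nephron segments and of cells outside the tubule were checked in the same sums. All 10 proximal tubule markers had UMIs in all 5 libraries, at 0.276% to 0.418% of UMIs, against 1.16% to 1.37% in the controls. The labelled cell type is injured tubule, but detection in sums of this size does not set a segment apart. All 11 thick ascending limb markers and all 8 intercalated cell markers also had UMIs in all 5 libraries. As a sum the proximal tubule markers were below their control level. Hnf4a alone was inside its control range of 166.6 to 229.6 CPM in day 28 mouse 3 (169.8) and day 7 mouse 2 (167.2). Thick ascending limb markers took 0.213%, 0.103% and 0.126% at day 28 and 0.0910% and 0.0951% at day 7 (exact permutation p = 0.2). The member with the most UMIs was Slc12a1. Without it the shares were 0.1026%, 0.0571% and 0.0630% at day 28 and 0.0566% and 0.0643% at day 7, so the groups overlapped. Slc12a1, the salt cotransporter gene of that segment, had 1057, 486 and 611 CPM against 357 and 299.97, and Egf 446, 194 and 234 against 98.7 and 79.8; neither passed with 5 libraries, and within v3 barcodes they rose by 0.76 (SE 0.16) and 1.28 (SE 0.16). Cldn10, a claudin gene that is also a thin limb marker, fell in that fit (-0.84, SE 0.15); the other 8 of the 11 markers did not pass, and the list median was 0.73 with 5 libraries and 0.53 within v3 barcodes. Umod, the uromodulin gene of the same segment, overlapped between the times (0.86, SE 0.48, adjusted p = 0.34). Podocyte markers took 0.207% to 0.240% at day 28 and 0.207% and 0.192% at day 7 (exact permutation p = 0.5), above the controls at 0.0408% to 0.119%. Most of that share was 1 gene, Magi2; without it the markers took 0.0185% to 0.0242%, 0.0144% and 0.0146%, and 0.0112% to 0.0122% in the controls. Thin limb markers took 0.0265% to 0.0314% at day 28 and 0.0463% and 0.0560% at day 7 (exact permutation p = 0.1). Most of this was Cldn10, and without it the shares were 0.0106% to 0.0120% and 0.01455% and 0.01445%. The members did not move together: 5 of 8 were positive, with a median of 0.32 with 5 libraries and 0.06 within v3 barcodes, where Cldn10 and Jag1 fell. No share of the 14 classes passed adjustment, and with 3 mice against 2 none could.

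Stroma markers took 0.0395%, 0.0205% and 0.0392% of UMIs at day 28 and 0.0496% and 0.0493% at day 7 (exact permutation p = 0.1), against 0.00382% to 0.00666% in the controls. That order came from 1 member, the glypican gene Gpc6, at 106, 105 and 152 CPM against 399 and 368 (-1.67, SE 0.21, adjusted p = 0.025), the only call of the list with 5 libraries. Without Gpc6 the list took 0.0285%, 0.0106% and 0.0237% at day 28 and 0.0112% and 0.0114% at day 7, so the groups overlapped and the higher values were at day 28. Of the 10 members tested 7 were positive, with a median of 0.58 (0.37 within v3 barcodes), and Pdgfrb, the pericyte receptor gene, rose within v3 barcodes (1.49, SE 0.41). Endothelium markers took 0.0239% to 0.0422% at day 28 and 0.0291% and 0.0328% at day 7 (exact permutation p = 0.6). Leukocyte markers took 0.0140% to 0.0197% and 0.0138% and 0.0111% (exact permutation p = 0.2). Without Arhgap15, the member with the most UMIs, they took 0.0115%, 0.00674% and 0.01075% at day 28 and 0.00878% and 0.0071% at day 7, so the groups overlapped. Of the 14 markers 9 had UMIs in all 5 libraries and 3 had none.

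Nuclei with 3 or more UMIs over the stroma, endothelium and leukocyte lists made up 10.3%, 13.1% and 23.6% of the day 28 libraries and 29.5% and 20.4% of the day 7 libraries. Because Gpc6 decides many of these nuclei and is itself lower at day 28, the count was repeated with Gpc6 out of the lists, which gave 9.61%, 10.2% and 19.1% at day 28 and 14.1% and 8.98% at day 7. In both counts the cut is fixed, so a deeper nucleus meets it more easily. Median depths were 1185, 2824 and 4174 UMIs at day 28 and 3172 and 1963 at day 7. The percentages are therefore no measure of how many nuclei came from outside the tubule. Without the nuclei of this narrower count 345 genes were higher and 95 lower, and all 35 named genes kept their call. Havcr1 then changed by -1.82, Cd44 by -1.34 and Tgfb2 by 1.75. Without the nuclei of the wider count 326 genes were higher and 63 lower, and 3 of the 35 missed the threshold: Adap2os (adjusted p = 0.0563), Ano3 (0.0572) and Kcnq5 (0.0567).

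Serum creatinine, a measure of filtration, is given in the labels for each injured mouse. Among the controls it is given only at harvest and only for sham mice 2 and 3, at 0.122 and 0.100 mg/dL. At 48 h after surgery it was 0.488, 0.208 and 0.228 mg/dL in the day 28 mice and 0.255 and 0.133 mg/dL in the day 7 mice, with overlapping groups (two-sided exact permutation p = 0.6). At harvest it was 0.093, 0.114 and 0.074 mg/dL at day 28 and 0.177 and 0.149 mg/dL at day 7, a difference of -0.0693 mg/dL with no overlap (exact permutation p = 0.1, the smallest possible). Day 28 mouse 1, whose library stood apart, had the highest value at 48 h and an intermediate one among the day 28 mice at harvest.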

How the data were processed

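Nuclei were isolated from frozen kidneys, sorted for GFP and sequenced as 3′ single-nucleus libraries, per the labels' protocols, which name doublet gating at the sorter. The authors deposited raw UMI counts per gene and nucleus. Tools listed in the submitters' processing notes are STAR, Cell Ranger and Seurat, with the mm10 build; versions and settings were not given in the sources. The injury table held 19342 genes, each with a count in at least 3 nuclei. Barcode chemistry was read from how the cell barcodes begin. All nuclei of a library were summed, with no further filter on nuclei, no clustering and no doublet caller. Sums of the 5 injured mice were fitted with edgeR 4.0.16 in R 4.3.3: filterByExpr, TMM factors, robust quasi-likelihood fit with day as the only term, F test, and Benjamini-Hochberg adjustment over all genes tested, with a threshold of 0.05. The SE of each log2 change was taken from its F statistic (absolute change over root F). A barcode term would fit day 28 mouse 1 exactly, so the comparison within v3 barcodes leaves that mouse out. Control levels are plain CPM without a TMM factor. Library totals of 2409411 to 14641038 UMIs limit the precision of low genes. The p-values rest on the spread between these libraries, 3 and 2, combined with the spread of other genes. The median prior degrees of freedom were 4.03 and the residual ones 3. At day 28 that spread also holds the difference in barcode chemistry.

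Named genes were the 15 largest rises and 15 largest falls among called genes with a mean of at least 20 CPM in the higher group, no overlap between the libraries of the groups and no predicted or clone symbol; up to 4 called members in each direction of each list; and Krt20, Havcr1, Vcam1, Spp1, Cd44, Lcn2, Ccl2, Il34, Sox9, Slc34a1, Lrp2, Hnf4a, Mki67, Top2a, Umod, Slc12a1 and Malat1. Ect2, the protein-coding rises without a tested gene on the other strand, and members named for a value within v3 barcodes were chosen after their values had been seen. Some list members that passed within v3 barcodes are not reported here. The comparison and the 23 function and 11 marker lists were chosen with earlier results of these data known. Shares of UMIs and creatinine were compared by two-sided exact permutation over 10 splits. Coordinates and spans are from GENCODE M21 (GRCm38), in which 19039 of 19342 symbols (98.4%) had a single span; promoter windows are from RefSeq (GRCm38.p6). The scripts were tested on simulated counts of the 5 libraries. There 50% of 4-fold and 4% of 2-fold changes were called, with 2 false calls among 56. A gene or list without a call with 5 libraries is therefore not shown to be unchanged. Alternatives were other normalizations, DESeq2 1.42.0, no filter, each library left out, a replicate block, a fit of all 9 libraries, nuclei with 1000 or more UMIs, removal of nuclei with non-tubule markers, thinning to equal totals, removal of Malat1 and mitochondrial genes, and limma 3.58.1 on means over nuclei.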

Additional observations from a re-analysis of the deposited data

How the results depend on the processing

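The counts of 276 higher and 79 lower genes moved with the mice: leaving out 1 library gave 0 to 1431 higher and 0 to 803 lower genes. Without day 28 mouse 1 they were 1431 and 803, without day 28 mouse 2 and without day 7 mouse 2 none, without day 28 mouse 3 they were 3 and 0, and without day 7 mouse 1 they were 47 and 2; where 1 day 7 library was left, it was assumed to vary like the day 28 group. Of the 35 named genes called with 5 libraries, 35 kept their call without day 28 mouse 1, 1 without day 28 mouse 3, 7 without day 7 mouse 1 and none in the other 2 cases, and none changed direction under any alternative. Of the cell cycle genes 0 to 14 were lower in these fits. DESeq2 called 1099 and 378 genes, the fit with no filter on low counts 440 and 142, the fit of all 9 libraries 531 and 122, and the fit on means over nuclei with limma 402 and 135. Thinning to equal totals gave 213 and 51. Other normalizations, nuclei with 1000 or more UMIs, removal of nuclei with non-tubule markers and removal of Malat1 and mitochondrial genes gave 210 to 326 and 60 to 76. Removal of nuclei with non-tubule markers, with Gpc6 out of the marker lists, was added after the data had been seen and gave 345 and 95. Counted only over genes with no tested gene on the other strand, an alternative added at the same stage, 44 were higher and 68 lower. The causes were not tested. Mice 1 and 2 of the times share only a number: their deviations correlated at -0.0947 and -0.129, and a replicate block, with 934 higher and 228 lower genes, kept the calls of all 35 named genes. Depth limits genes such as Kif11, Bub1 and Cdk1, which had no UMI in day 28 mouse 1.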
